A study of Homo sapiens with 12 samples.

Results

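The HOX cluster genes were examined in MDA-MB-231 cells, a triple-negative human breast cancer line, after transfection of a miR-145-5p mimic, silencing of AGO2 (Argonaute 2), or both. Members were the array probes whose annotated transcript belongs to a gene named HOXA, HOXB, HOXC or HOXD followed by a number. This gave 39 genes on 97 probes, of 20708 genes and 209671 probes that could be assigned to a gene. RNA was measured on 12 one-color arrays, 3 in each of 4 groups, and the submitters describe the experiment as a biological triplicate. The control group (cntrl) received control oligonucleotides in place of both agents. The group mimic145 overexpressed miR-145, the group sirnaAGO2 had AGO2 silenced, and the group sirnaAGO2+mimic145 had both. Mimic oligonucleotides were used at 5 nM and the Dicer-substrate siRNAs at 500 pM for 72 h. The labels do not say whether cells given only 1 agent also received the control oligonucleotide of the other. All groups are of 1 cell line, so every comparison is within that line.

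HOX genes encode homeodomain transcription factors that give cells positional identity along the body axis. In humans they lie in clusters on chromosomes 7 (HOXA), 17 (HOXB), 12 (HOXC) and 2 (HOXD), and genes with the same number in different clusters are paralogs. Low-numbered genes act toward the head end and high-numbered genes toward the tail end of the embryo. Cells keep part of this code in adult tissue, Polycomb proteins hold HOX genes silent and Trithorax or MLL proteins keep them active, retinoic acid induces several of them, and TALE homeodomain proteins (PBX, MEIS, PKNOX) bind DNA together with HOX proteins.

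The mimic carries a single defined sequence, shown because it is the agent whose effect on the HOX genes was measured. The natural mature strand, as RefSeq gives it on GRCh38.p14 at chr5:149430661-149430683 on the plus strand, reads as follows, with the seed, bases 2 to 8, in capitals.
hsa-miR-145-5p: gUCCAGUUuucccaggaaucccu

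AGO2 served as the check of the silencing. Its log2 level fell by 0.71 (SE 0.08) in sirnaAGO2 against cntrl, which left 61.0% of the control signal (limma adjusted p = 0.00491), and all 19 of its probes were lower. An exact permutation test of 3 arrays against 3 gave p = 0.1, the smallest it allows. AGO1, AGO3 and AGO4 differed by 0.13 (SE 0.06), 0.00 (SE 0.08) and -0.06 (SE 0.07) after silencing, and none of them passed (limma). AGO2 itself rose by 0.28 (SE 0.08, limma adjusted p = 0.0298) with the mimic in control cells. The cell line was also checked against its markers. All 10 markers of a mesenchymal, basal-type line, among them VIM, CD44 and AXL, had a probe well above background on all 12 arrays. Of the 8 luminal markers 6 had such a probe as well, and PGR and FOXA1 had none. GATA3 had 6 of 6, EPCAM 7 of 10, TFF1 2 of 3, CDH1 4 of 16, ESR1 3 of 14 and ERBB3 3 of 29. Of 13 markers of fibroblasts, leukocytes and endothelium, 10 had such a probe too. Having 1 such probe therefore does not tell cell types apart. Most probes were of this kind in 9 of the 10 line markers, 3 of the 8 luminal markers and 1 of these 13. The share of spots well above background ran from 60.5% to 77.3% of an array. In such bulk RNA, fewer cells of a kind and less RNA per cell cannot be told apart.

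Of the 39 HOX genes, 26 gave signal that could be tested. "Well above background" is the scanner software's flag for a spot, and a probe was kept when it carried that flag on all 3 arrays of at least 1 group. By this rule 30 of the 97 HOX probes were kept (30.9%), against 68.2% of all probes with a gene. On no array were 50 of the 97 HOX probes (51.5%) well above background, against 20.8% of all probes with a gene. On every array were 15 HOX probes (15.5%), against 50.6% of all probes with a gene. The genes with a probe of this last kind numbered 14. Among them were HOXA10, HOXA11 and HOXA13, then HOXB2, HOXB3, HOXB6 and HOXB9, then HOXC4, HOXC6, HOXC8 and HOXC11, and lastly HOXD3 and HOXD4. Another 8 genes had no probe above background on any array, namely HOXA6, HOXA9, HOXB1, HOXB5, HOXC9, HOXC13, HOXD10 and HOXD12. HOXA7, HOXB7, HOXB8, HOXB13 and HOXD9 were flagged on 1 to 4 arrays and were not tested either. For these 13 genes the arrays show only that the probes were not well above background.

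The tested genes were spread over all clusters. They numbered 8 of 11 in HOXA, 5 of 10 in HOXB, 7 of 9 in HOXC and 6 of 9 in HOXD. By paralog number they were 7 of 8 genes in groups 1 to 3, 10 of 15 in groups 4 to 8 and 9 of 16 in groups 9 to 13. Probes of a gene could differ: 10 of the 38 HOX genes with 2 or more probes held both a probe seen on all arrays and a probe seen on none (26.3%, against 37.9% of all such genes). HOX transcripts also overlap each other. In RefSeq, 11 of the 39 genes overlap another HOX gene: HOXA3 with HOXA4, HOXA5 and HOXA6, HOXB3 with HOXB4, HOXC4 with HOXC5 and HOXC6, and HOXD3 with HOXD4. Probes there may read more than 1 of them.

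The first comparison asked which HOX genes changed when miR-145 was added to cells with AGO2 intact. HOXD3, a group 3 homeodomain gene, was the 1 gene of 26 that passed (limma, blocked by replicate number, adjusted p under 0.05), where 22.6% of all 18253 genes tested passed. Its log2 normalized intensity was 8.07, 7.97 and 7.18 in cntrl replicates 1, 2 and 3, and 8.43, 8.25 and 7.76 in mimic145 replicates 1, 2 and 3. The mimic145 array was the higher in each of the 3 replicates, while the groups as such overlapped, replicate 3 being lowest in both. HOXD3 rose by 0.41 (SE 0.12, 95% interval 0.14 to 0.68, limma adjusted p = 0.0372), to 133% of the control level, on 1 kept probe. HOXD4, which overlaps HOXD3, differed by 0.40 (SE 0.18, limma adjusted p = 0.154). It was higher in each of the 3 replicates and did not pass. Whether the HOXD3 probe reads HOXD4 transcripts was not tested.

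The HOXD3 call depended on the pairing of replicates and on single arrays. Without the replicate block the adjusted p of HOXD3 was 0.401 (limma). The exact permutation test of 3 arrays against 3, which does not use the pairing, gave p = 0.4. Fitted as a probe among all 154001 kept probes, it had an adjusted p of 0.0687 (limma). The call was lost as well in 8 of the 12 fits without 1 array, namely without replicate 1, 2 or 3 of mimic145 or of sirnaAGO2, and without replicate 1 or 3 of cntrl. Over these 12 fits the adjusted p ran from 0.0153 to 0.139 (limma), and the difference stayed above 0 in each, between 0.29 and 0.53.

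The other 25 tested HOX genes did not pass. Their log2 differences ran from -0.49 to 0.40, and the 95% interval of 24 of the 26 genes lay within 1 log2 unit of 0. HOXC11 and HOXC10, posterior patterning genes, came nearest among those named here, and are shown in full although they were picked after their values were seen. HOXC11 read 6.36, 6.43 and 6.07 in cntrl and 6.55, 6.95 and 6.45 in mimic145, a difference of 0.36 (SE 0.12, limma adjusted p = 0.059). HOXC10 read 7.10, 7.35 and 6.99 in cntrl and 6.45, 6.81 and 6.86 in mimic145, a difference of -0.44 (SE 0.16, limma adjusted p = 0.086). In both the groups did not overlap, mimic145 being above cntrl for HOXC11 and below it for HOXC10. HOXA5, kept only through its cntrl arrays, and HOXB4 lay lower in mimic145 without overlap as well. Such separation held for 5 HOX genes of 26, against 28.4% of all genes.

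At an unadjusted p under 0.05, 4 HOX genes of 26 differed, against 35.4% of all genes. The median difference over the 26 genes was 0.11, and over all genes 0.01. It rested on replicate 3: without its cntrl array the HOX median was 0.0024, with 13 of 26 genes higher, and without its mimic145 array 0.05. Without the filter on dim probes it was 0.05 over all 39 genes, against 0.03 over all genes. The median of 0.11 joins 2 kinds of gene. Among the 14 genes with a probe seen on every array, 12 were higher in mimic145, with a median of 0.20. Among the 12 genes without one, 8 were lower, with a median of -0.24. The values of the 14 genes include their dimmer kept probes. On the probes seen on every array alone, 11 of the 14 were higher. Their median was 0.20, against 0.05 over all genes tested in that way. Of the 30 kept probes, 29 were well above background on all 3 cntrl arrays but 20 on all 3 mimic145 arrays. Over all spots, in replicate order, the flag covered 71.6%, 67.6% and 73.4% in cntrl and 66.7%, 61.6% and 77.3% in mimic145. Of the 12 genes of the second kind, 4 passed the filter through cntrl alone (HOXA2, HOXA5, HOXC5 and HOXD13) and 1 through sirnaAGO2 alone (HOXC12). Another 3 passed through both cntrl and mimic145 (HOXA3, HOXB4 and HOXC10). No support is drawn from the direction of these 12 genes. HOXA5 was well above background on no mimic145 array. Its probe was kept through cntrl alone, so a higher cntrl value is favoured by the filter. The fitted difference of HOXA5, -0.26 (SE 0.14, limma adjusted p = 0.230), did not pass, and no size or direction is read from it.

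**Figure D1:**
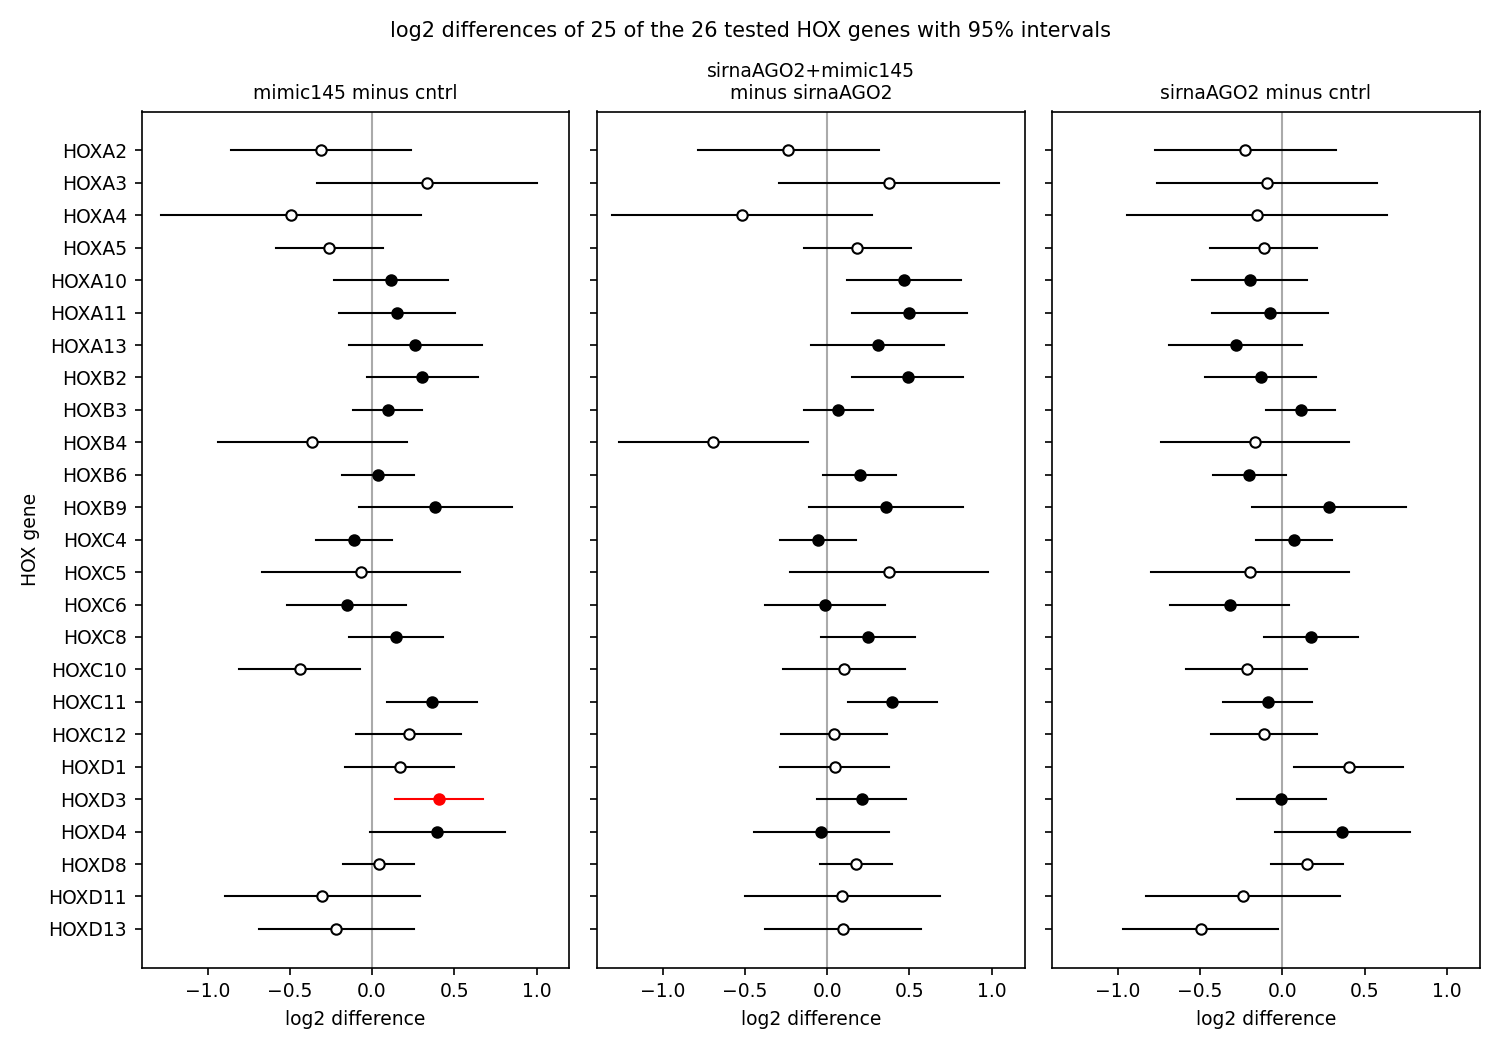
Log2 differences of 25 of the 26 tested HOX genes with 95% intervals from limma for mimic145 minus cntrl, sirnaAGO2+mimic145 minus sirnaAGO2, and sirnaAGO2 minus cntrl. Filled points are the 13 genes shown that had a probe well above background on all 12 arrays and open points the other 12; HOXD3 (red) is the 1 gene at an adjusted p under 0.05, and most intervals include 0.

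The second comparison asked the same of cells whose AGO2 was silenced. No HOX gene of 26 passed (limma, adjusted p under 0.05), against 7.28% of all genes, and 6 had an unadjusted p under 0.05, against 28.8% of all genes. The methods' paired t-test gave 0 after Benjamini-Hochberg adjustment, but it gave 0 over all 18253 genes as well, which is no result about HOX genes. Without adjustment it gave 3, against 14.2% of all genes. HOXC11 differed by 0.40 (SE 0.12, limma adjusted p = 0.0743), HOXB2 by 0.49 (SE 0.15, limma adjusted p = 0.0762), HOXA11 by 0.50 (SE 0.16, limma adjusted p = 0.079) and HOXA10 by 0.47 (SE 0.15, limma adjusted p = 0.0916). None of these 4 genes passed, and in all of them the mimic-treated array was the higher in each replicate. HOXD3 differed by 0.21 (SE 0.12, limma adjusted p = 0.276), higher in each of the 3 replicates.

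HOXB4 went the other way, by -0.69 (SE 0.25, limma adjusted p = 0.117). It read 7.31, 7.40 and 7.26 in sirnaAGO2 and 7.22, 6.95 and 5.72 in sirnaAGO2+mimic145, where replicate 3 stood apart. Its 2 probes were well above background on 2 and on 1 of the 3 arrays of that group. HOXB4 was kept through the other groups, sirnaAGO2 among them. A lower value in sirnaAGO2+mimic145 is thus favoured by the filter, and nothing is read from its direction. Of the 26 genes, 20 were higher with the mimic, with a median of 0.18, against 54.1% of all genes and a median of 0.02. Without the arrays of replicate 3 the HOX median was 0.09. Among the 14 genes seen on every array 11 were higher, with a median of 0.28. On the probes seen on every array alone, 10 of the 14 were higher. Their median was 0.28, against 0.06 over all genes tested in that way. No overlap between groups was seen for 6 HOX genes, 5 higher and 1 lower (HOXB4), against 24.1% of all genes.

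Other measures moved with this comparison. Of the 30 kept HOX probes, 26 were well above background on all sirnaAGO2 arrays and 16 on all sirnaAGO2+mimic145 arrays. The flag was also rarer over all spots. In replicate order it covered 71.0%, 69.1% and 74.05% of spots in sirnaAGO2 and 67.9%, 60.5% and 70.8% in sirnaAGO2+mimic145. The summed level of 13 markers of fibroblasts, leukocytes and endothelium was between 11.55 and 11.82 (log2) in sirnaAGO2 and between 11.85 and 12.40 in sirnaAGO2+mimic145, and 4 of the 13 rose, with CD14 by 1.01, where 7.28% of all genes passed. Of these 13 markers, DCN, LUM and PECAM1 had no probe well above background on all 12 arrays. In control cells 2 of the 13 rose and 1 fell with the mimic, a share near the 22.6% of all genes, and their summed level was between 11.53 and 11.90 in cntrl and between 11.57 and 11.99 in mimic145. After silencing alone 2 of the 13, LUM and PECAM1, fell, where 2.58% of all genes passed. Of 6 tested luminal markers, EPCAM and ERBB3 fell with the mimic in control cells. The part of these shifts in the HOX values was not tested.

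The third comparison asked what silencing AGO2 did by itself. No HOX gene of 26 passed (limma, adjusted p under 0.05), against 2.58% of all genes, and 2 had an unadjusted p under 0.05, against 19.0% of all genes. The methods' paired t-test gave 0 after Benjamini-Hochberg adjustment, as it did over all 18253 genes. Without adjustment it gave 5, against 17.5% of all genes. HOXD1, an anterior gene, differed by 0.40 (SE 0.15, limma adjusted p = 0.181), higher in each of the 3 replicates. HOXD13, the most posterior gene of its cluster and a limb patterning gene, differed by -0.50 (SE 0.21, limma adjusted p = 0.240). Its probe was kept through cntrl alone, so lower values elsewhere are favoured by the filter and nothing is read from its direction. All 26 intervals lay within 1 log2 unit of 0. The median over the 26 genes was -0.12, with 19 lower, against -0.03 over all genes, of which 42.6% were higher. This lean was not seen without the filter on dim probes, where the median was -0.0026 with 19 of 39 HOX genes higher, and -0.02 over all genes. Of the 14 genes with a probe seen on every array 9 were lower, with a median of -0.08, and of the other 12 genes 10 were lower, with a median of -0.16. Without cntrl replicate 1 the median over the 26 genes was -0.03, and without cntrl replicate 2 it was -0.19. In the HOXA cluster all 8 tested genes were lower, with a median of -0.17, and none of them passed, but HOXA2 and HOXA5 were kept through cntrl alone. Groups did not overlap for 4 HOX genes, HOXD13 among them, against 19.1% of all genes. This comparison uses the same cntrl arrays as the first one, so their values are not independent. Its 2 groups also lay on different slides, so slide and silencing cannot be told apart.

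Whether the mimic acted differently without AGO2 was tested as the difference between both mimic effects, silenced minus control cells. No HOX gene of 26 passed (limma), against 0.0110% of all genes, which is 2 genes. HOXC10 had the 1 unadjusted p under 0.05, against 16.8% of all genes, with a difference of 0.54 (SE 0.23, limma adjusted p = 0.285), being -0.44 in control cells and 0.10 in silenced cells. The methods' paired t-test gave 0 after Benjamini-Hochberg adjustment, as it did over all 18253 genes. Without adjustment it gave 1, against 10.3% of all genes. For HOXD3 the difference was -0.20 (SE 0.17, limma adjusted p = 0.563, 95% interval -0.58 to 0.18). The precision is lower here, with a median SE of 0.22 over the HOX genes, and 20 of the 26 intervals lay within 1 log2 unit of 0. Over all genes the median SE of this contrast was 0.14.

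Fitted probe by probe, no HOX probe of 30 passed in any comparison. Among all 154001 kept probes 14.2% passed for the mimic in control cells, 1.67% for the mimic in silenced cells, 0.356% for silencing and 0% for the difference of the mimic effects (limma, adjusted p under 0.05). At an unadjusted p under 0.05 there were 4, 6, 2 and 0 HOX probes in that order, against 30.0%, 23.5%, 13.6% and 11.8% of all kept probes.

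HOXC6, a thoracic-level patterning gene, was the only HOX gene with 3 kept probes, and its probes did not move alike. Averaged over them, HOXC6 read 7.55, 7.14 and 7.22 in cntrl, 6.81, 7.22 and 7.41 in mimic145, 6.84, 6.97 and 7.13 in sirnaAGO2, and 6.97, 6.76 and 7.17 in sirnaAGO2+mimic145. The highest sirnaAGO2 array, at 7.13, was still under the lowest cntrl array, at 7.14, with a mean difference of -0.32 (SE 0.16, limma adjusted p = 0.316), and an exact permutation test gave p = 0.1, the smallest it allows. Without cntrl replicate 1 the difference was -0.12. The mimic effects were -0.15 (SE 0.16) in control cells and -0.01 (SE 0.16) in silenced cells, with groups that overlapped.

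In some HOXC6 probes the arrays of replicate 3 lay at one end of the range. Probe A_37_P285413, annotated to a transcript of its own, read between 8.65 and 9.42 on the 4 arrays of replicate 3, and between 6.56 and 8.67 on the arrays of replicates 1 and 2. Probe A_33_P3300965, annotated to the other HOXC6 transcript, went the opposite way, between 5.91 and 6.48 in replicate 3 and between 6.66 and 7.46 in replicates 1 and 2. A further probe of that transcript, A_37_P061709, showed no such order, with means of 6.38 ± 0.22, 6.56 ± 0.35 and 6.29 ± 0.32 (SD over the 4 arrays) in replicates 1, 2 and 3. The fourth HOXC6 probe, A_37_P061710, was well above background on no array.

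**Figure D2:**
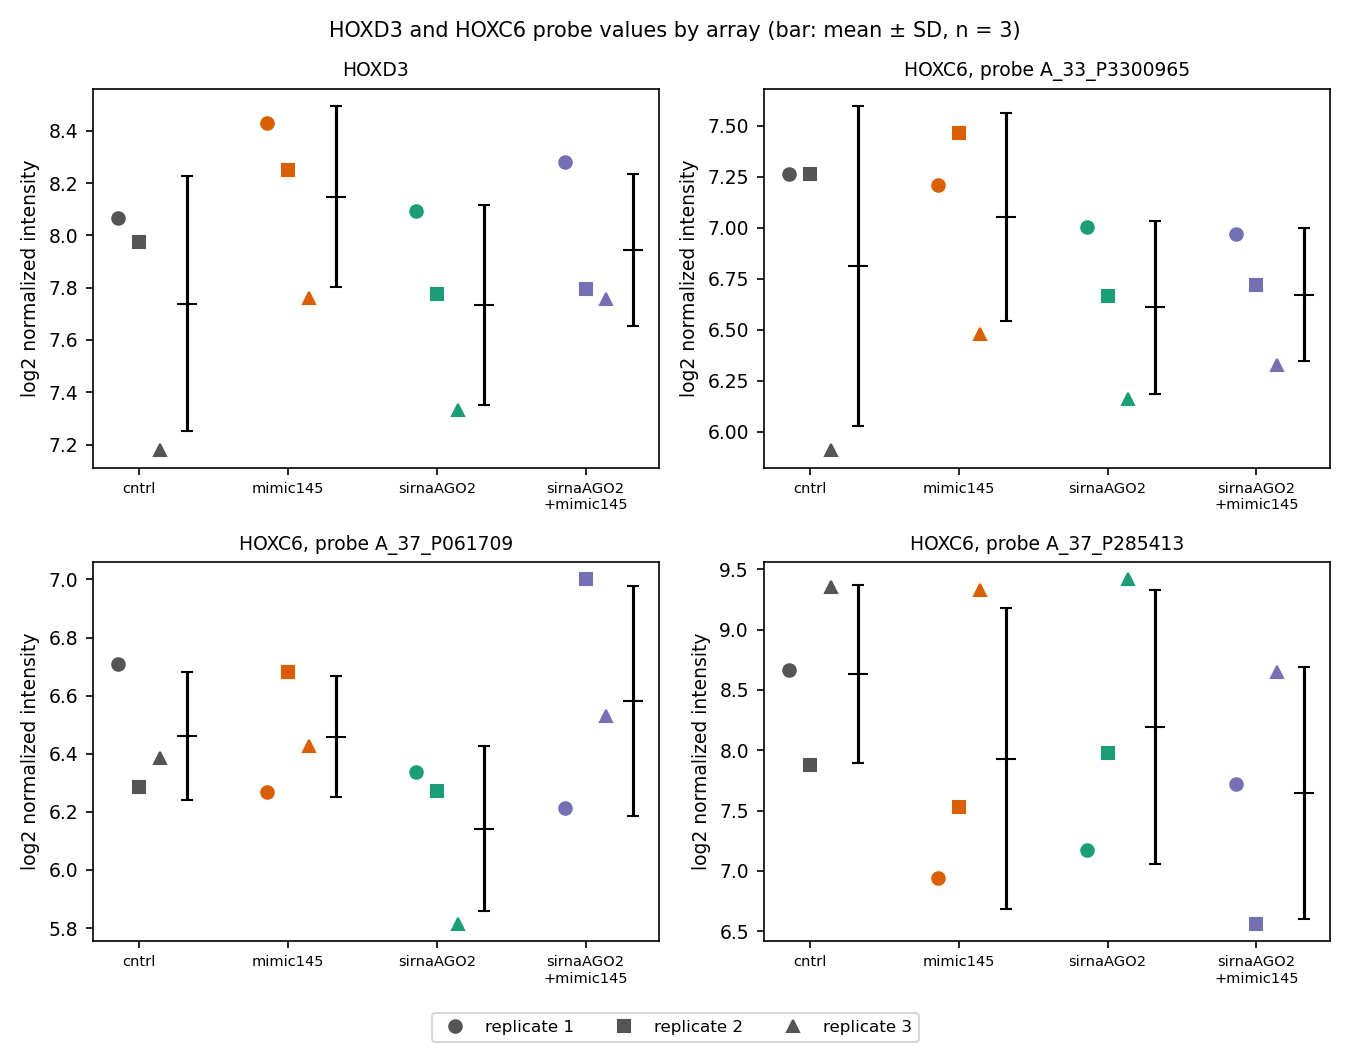
Log2 normalized intensity of the kept HOXD3 probe and the 3 kept HOXC6 probes on each array, by group (colors) and replicate (marker shapes), with mean ± SD (n = 3) as black bars. Replicate 3 is lowest in all 4 groups for HOXD3 and for probe A_33_P3300965, and highest in all 4 groups for probe A_37_P285413.

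Arrays of replicate 3 were compared over the HOX genes together as well. Each gene was centred on its own mean over the 12 arrays, and the median of the 26 deviations was taken per array. It was lowest on the sirnaAGO2 array of replicate 3 (-0.28) and the cntrl array of replicate 3 (-0.21), where 4 and 7 of the 26 genes exceeded their own mean. It was highest on the mimic145 array (0.22) and the sirnaAGO2+mimic145 array (0.20) of replicate 2. Over all genes the same medians ran between -0.06 and 0.06. The share of spots well above background was lowest on those 2 replicate 2 arrays, at 61.6% and 60.5%, and in each of the 4 groups it was highest in replicate 3. Its part in the HOX values was not tested. In pairs of arrays of the same replicate, the median HOX difference for the mimic in control cells was -0.12, 0.06 and 0.24 in replicates 1, 2 and 3, and in silenced cells 0.09, 0.16 and 0.23.

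**Figure D3:**
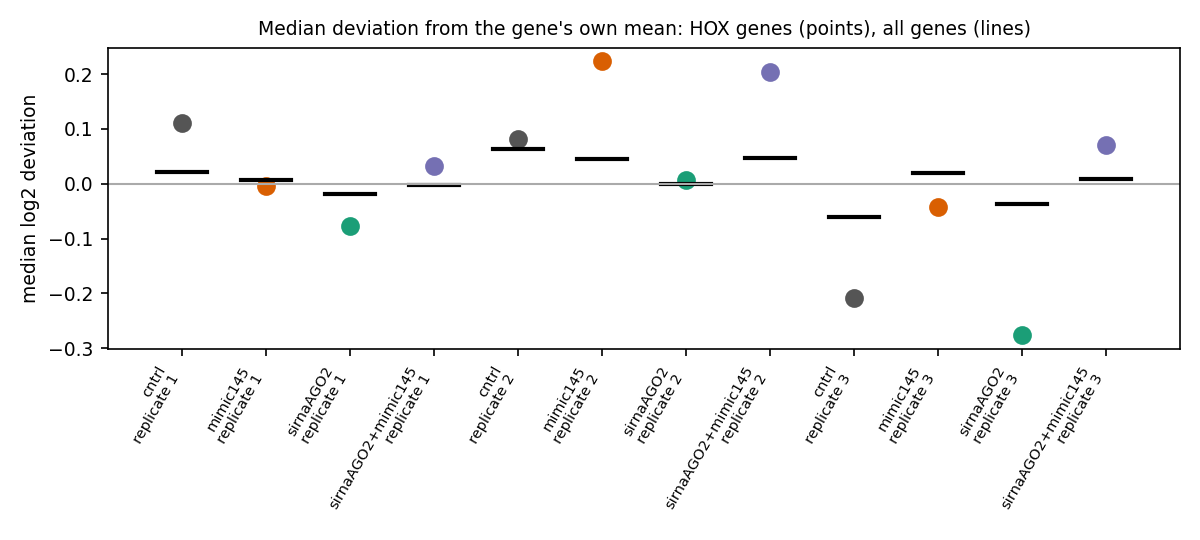
Median log2 deviation of the 26 tested HOX genes (points) and of all tested genes (black lines) from each gene's own mean over the 12 arrays, by array. Points run from -0.28 to 0.22 and lines from -0.06 to 0.06, and the lowest points are the cntrl and sirnaAGO2 arrays of replicate 3.

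Levels over the arrays are given next as ranges of log2 normalized intensity for the genes not yet shown, with no order between genes, since probes differ in brightness. In HOXA, HOXA2 ran from 5.21 to 6.33, HOXA3 from 5.40 to 7.08, HOXA4 from 6.30 to 7.68 and HOXA13 from 5.84 to 7.44. The group means of HOXA13, a limb and urogenital patterning gene, were 6.56 ± 0.33, 6.82 ± 0.55, 6.27 ± 0.38 and 6.58 ± 0.21 (SD, n = 3) in cntrl, mimic145, sirnaAGO2 and sirnaAGO2+mimic145. In HOXB, HOXB3 ran from 8.76 to 9.27, HOXB6 from 9.17 to 9.92 and HOXB9 from 9.33 to 10.53. HOXB9 had means of 9.70 ± 0.40, 10.08 ± 0.30, 9.98 ± 0.32 and 10.34 ± 0.20 (SD, n = 3) in the same order, with differences of 0.38 (SE 0.21) and 0.36 (SE 0.21) for the mimic, neither passing. In HOXC, HOXC4 stayed within 9.50 to 9.93, HOXC8 ran from 7.66 to 8.60, HOXC5 from 5.67 to 6.99 and HOXC12 from 5.50 to 6.21. In HOXD, HOXD4 ran from 7.53 to 8.60, HOXD8 from 6.84 to 7.39 and HOXD11 from 5.67 to 7.13. Over the 12 arrays, the HOX genes whose values were most like those of HOXD3 were HOXA13 (Pearson r = 0.74), HOXD4 (r = 0.66) and HOXC8 (r = 0.64), as a description over arrays that share replicates.

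Transcripts of the TALE proteins, which bind DNA with HOX factors, were tested from a list. Of 8 tested TALE cofactors, 3 rose with the mimic in control cells, among them PBX2 and MEIS2, where 22.6% of all genes passed. PBX2 rose by 0.52 (SE 0.11, limma adjusted p = 0.0121) and MEIS2 by 0.32 (SE 0.06, limma adjusted p = 0.00595) in control cells. PBX3 rose by 0.60 (SE 0.10, limma adjusted p = 0.0246) after silencing, where 2.58% of all genes passed. With the mimic in silenced cells 1 of the 8 rose, where 7.28% of all genes passed. For the difference of the mimic effects 1 of the 8 passed as lower, where 0.0110% of all genes passed.

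Chromatin regulators of HOX genes passed in shares near the 22.6% of all genes with the mimic in control cells. The counts are thus no result about the Polycomb list or the Trithorax and MLL list. Of 30 Polycomb genes, 5 rose and 2 fell. PCGF3, a PRC1 subunit, rose by 0.34 (SE 0.08, limma adjusted p = 0.0184) and CBX2, a Polycomb chromodomain protein, by 0.34 (SE 0.10, limma adjusted p = 0.0326), while MTF2, a PRC2 accessory protein, fell by 0.25 (SE 0.07, limma adjusted p = 0.0371). Of 19 Trithorax and MLL genes, 4 rose and 1 fell. ASH1L, a histone methyltransferase, rose by 0.43 (SE 0.06, limma adjusted p = 0.00188), DOT1L by 0.27 (SE 0.07, limma adjusted p = 0.0284) and MLLT1 by 0.38 (SE 0.11, limma adjusted p = 0.0401), whereas MLLT3 fell by 0.46 (SE 0.10, limma adjusted p = 0.0120). Of 18 retinoic acid genes 1 passed, a share under the 22.6% of all genes. It was CRABP2, a cytoplasmic retinoic acid carrier, which rose by 0.63 (SE 0.11, limma adjusted p = 0.00411). Medians of these lists were 0.25, 0.16, 0.04 and -0.08 in the order given, against 0.01 over all genes. With the mimic in silenced cells 7.28% of all genes passed. There 1 of 30 Polycomb, 1 of 19 Trithorax and MLL and 2 of 18 retinoic acid genes passed, counts that are no result about the lists. RBBP4, a histone-binding Polycomb protein, fell by 0.41 (SE 0.09, limma adjusted p = 0.0314), and ASH1L, CRABP2 and CYP26B1, a retinoic acid degrading enzyme, rose. After silencing alone no gene of the Polycomb, Trithorax and MLL or retinoic acid lists passed (limma), against 2.58% of all genes.

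The neighbours of the HOX genes within the clusters were measured for 10 of 32 listed genes, of which 6 were tested. EVX1, a homeobox gene beside HOXA13, fell by 0.55 (SE 0.12, limma adjusted p = 0.0101) with the mimic in control cells, from 10.53, 10.68 and 10.63 to 9.98, 10.34 and 9.86. No other of these 6 genes passed in control cells, so 1 of 6 did, where 22.6% of all genes passed. Of the 3 EVX1 probes, 1 was well above background on all 12 arrays and 1 on no array. In silenced cells its difference was 0.04 (SE 0.12), and the difference between both effects, 0.59 (SE 0.17), did not pass (limma adjusted p = 0.147). The noncoding transcript FLJ12825 of the HOXC cluster rose by 0.99 (SE 0.21, limma adjusted p = 0.0312) in silenced cells. It was the 1 gene of these 6 that passed there, where 7.28% of all genes passed. Of its 2 probes, none was well above background on all 12 arrays and 1 was so on no array. HOTAIR, a long noncoding RNA of the HOXC cluster, differed by -0.41 (SE 0.18, limma adjusted p = 0.138) in control cells, on 2 probes of which none was seen on all arrays.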

How the data were processed

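RNA was labelled with Cy3 and hybridized to Agilent SurePrint G3 Human Exon 2x400K arrays, and scans were read with Feature Extraction 10.7.3.1, per the file headers. The deposited scanner files give intensity per spot, background corrected and not normalized between arrays. A series table of log2 values, which the authors thresholded at 1 and quantile normalized, served as an alternative. Groups and replicate numbers came from the sample labels.

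Processed intensities under 1 were set to 1, control and outlier spots were left out, arrays were quantile normalized, log2 was taken and the spots of a probe were averaged. A probe was kept if some group had it well above background on each of its 3 arrays (154001 of 233164 probes). Genes were named through RefSeq accessions, 209671 probes having one, and a gene value is the mean over its kept probes (median 5, and 1 for 2835 of 18253 genes). limma 3.58.1 (R 4.3.3) was fitted to all 12 arrays with the replicate number as a block, tests were two-sided, and p-values were adjusted by Benjamini-Hochberg over all genes or all probes of a comparison. The replicate numbers paired the arrays: deviations from group means correlated between 0.148 and 0.576 for the 18 pairs of equal number and between -0.497 and 0.201 for the 36 others. Each slide held 2 arrays of 1 replicate, with the mimic always at the same position, so position and mimic cannot be told apart. The cntrl and mimic145 arrays lay on slides 1, 3 and 5, and those of both silenced groups on slides 2, 4 and 6. Slide and silencing therefore cannot be told apart either. With the slide as a random block 36 of all genes passed for silencing, against 471 in the main fit. No spot was saturated. A bound was also computed per array from the higher of the probe's own level and the lowest level among probes well above background. It is no upper limit on the true level, so no fold is reported from it. The fit was tested on simulated data.

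The named genes were those HOX genes that passed in a comparison and, per comparison, the 3 with the largest change among those with at least 3 kept probes, with other tested HOX genes given by range. From the cofactor, chromatin and retinoic acid lists, genes that passed for the mimic in control cells or for silencing were named, at most 4 a list by p. HOXC11, HOXC10, HOXB4 and the others shown with single values outside this rule were chosen after their values were seen. Some genes that the rule names or counts are not reported here by name. The members and lists were chosen with earlier results of these data known. Alternatives were other scaling, background correction, filters, probe summaries, blocks, thresholds, the methods' paired t-test and leaving out arrays. Arrays give no counts, so their number limits the precision.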

Additional observations from a re-analysis of the deposited data

Results flagged for a closer look

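HOXA5, a homeobox gene studied in breast cancer, was lower with the mimic in each of the 3 replicates of control cells and higher in each of the 3 replicates of silenced cells. It read 6.05, 5.99 and 6.11 in cntrl, 5.86, 5.99 and 5.52 in mimic145, 5.60, 6.18 and 6.02 in sirnaAGO2, and 5.93, 6.32 and 6.11 in sirnaAGO2+mimic145. In replicate 2 of control cells both values round to the same figure, mimic145 being the lower by less than that rounding shows. The fitted difference between both mimic effects was 0.44 (SE 0.20) and did not pass (limma adjusted p = 0.312). HOXA5 rests on 1 probe, which was well above background on 6 of the 12 arrays, on none of them in mimic145, and was kept through cntrl alone. Since mimic145 gave no signal well above background for it, this difference is no measured size. Nothing is read from the direction of HOXA5 in control cells.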

How the results depend on the processing

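For the mimic in control cells, the count of HOX genes that passed was 1. It became 3 with normexp (HOXC10 and HOXC11 among them) and 2 with the authors' log2 table (HOXC10, HOXC11). With probes restricted to those flagged on each of the 12 arrays it was 2 (HOXC11, HOXD3). At an adjusted p under 0.1 it was 4. In these settings 24.4% to 30.6% of all genes passed. The count was 0 with no replicate block (10.9% of all genes), with the slide as a random block (21.5%) and with only the groups compared (10%). It was also 0 by the methods' paired t-test, where 0% of all genes passed, which is no result about HOX genes. Without a filter on dim probes it was 1, but HOXB9 in place of HOXD3 (18.9% of all genes). It ran from 0 to 4 when an array or a replicate was left out (21.7% of all genes at the highest). In silenced cells the count of 0 became 2 with 75th percentile scaling (HOXC11 among them), with normexp (HOXB2 among them) and with the authors' table (HOXC11 among them), 1 with probes restricted to those flagged on each of the 12 arrays, 5 at an adjusted p under 0.1 (11.3% to 17.1% of all genes in these), and 0 to 5 when an array or a replicate was left out (12.6% of all genes at the highest). The highest of these came without sirnaAGO2+mimic145 replicate 3 in control cells, and without sirnaAGO2+mimic145 replicate 1 in silenced cells. For silencing the count was 1 (HOXD13) with only the groups compared (1.29% of all genes). It was otherwise 0, where 0% to 6.81% of all genes passed. For the difference of the mimic effects the count was 0 under all 26 alternatives. At most 1.94% of all genes passed in any of them. With no replicate block, by the methods' paired t-test and without any 1 replicate 0% passed. This 0 is thus no result about HOX genes. With probes restricted to those flagged on each of the 12 arrays, 1 HOX probe of 15 passed for the mimic in control cells. The share over all such probes was not taken, so nothing is read from this count.

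Over all genes 4121 passed for the mimic in control cells, against 1997 with no replicate block and 0 by the methods' paired t-test. For HOXD3, with no replicate block its difference of 0.41 had an adjusted p of 0.401 (limma), and it passed under 9 of 25 alternatives in all, always above 0. AGO2 was lower under each of its 25 alternatives, with differences of -0.78 to -0.64 when an array or a replicate was left out, but did not pass without any 1 replicate or without sirnaAGO2 replicate 1 (limma adjusted p from 0.0522 to 0.221 in these). Other sign changes concerned values that passed in no setting. HOXC6 in silenced cells (-0.01) became 0.22 with 75th percentile scaling, 0.10 without a filter and 0.13 with the median over probes. Its difference of mimic effects (0.14) became -0.0103 with probes restricted to those flagged on each of the 12 arrays, and that of HOXD3 (-0.20) became 0.0016 without a filter. With arrays or replicates left out, HOXC6 ran from -0.33 to 0.14 in control cells, from -0.087 to 0.0841 in silenced cells, from -0.47 to -0.12 after silencing and from -0.23 to 0.36 for the difference of the mimic effects, and HOXD3 after silencing from -0.12 to 0.11. The causes were not tested. The HOX median in silenced cells (0.18) was 0.32 with 75th percentile scaling, where all genes had a median of 0.11, and 0.08 with normexp. Dim HOX probes and 3 arrays a group limit what could be seen: the median SE of a HOX gene was 0.15 against 0.10 over all genes.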
